A study of Mus musculus with 2 samples.

Results

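The DEAD-box and DEAH-box helicases are the large family of RNA-remodelling ATPases to which DDX41 belongs, and their transcripts were followed here in bone marrow of a control mouse and of a mouse labelled as lacking Ddx41 in its blood cells. Members were taken by symbol as every gene whose name begins with Ddx or Dhx and a digit, leaving out Ddx3y, Ddx58 and Dhx58, which gave 51 of the 32285 genes in the matrices. One of these, Dhx58os, is an antisense RNA of Dhx58 and not a helicase; it had 26 UMIs in the control and 10 in the knockout and was left out of sums, so that 50 helicase genes remain. A UMI (unique molecular identifier) counts 1 captured transcript molecule.

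The series holds 2 libraries of femoral bone marrow from mice of 2 months, made by droplet-based 3′ single-cell RNA-seq (Chromium). The WT library came from a Ddx41 fl/fl littermate that carried no VavCre and had intact cGas alleles. The DKO library came from a VavCre:Ddx41 fl/fl, cGAS-/- mouse, in which Ddx41 is floxed out by a Cre driven from the Vav promoter across hematopoietic cells and cGAS, the cytosolic DNA sensor, is labelled as knocked out throughout the animal. Both carried the floxed Ddx41 alleles, and Vav-driven Cre is also active in endothelial cells and oocytes. With 1 library per genotype no difference was tested: each is given as the log2 ratio of DKO over WT with its exact 95% binomial interval, which covers counting error only and neither animal nor preparation. The Ddx41 and cGas alleles differ together, so their parts in any difference cannot be told apart.

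After cell calling, 18588 WT cells with 118592177 UMIs and 13729 DKO cells with 114830668 UMIs were kept, with median depths of 4882 and 6904 UMIs per cell; 79 cell barcodes occurred in both libraries. Clustering was done without the members, and 28 of 29 clusters were named by marker genes into 13 classes. The 6 classes with at least 5000000 UMIs in each library (late erythroid, early erythroid, cKit+ progenitor, neutrophil, monocyte and B cell) carry the comparisons. The cKit+ progenitor class was 1 cluster led by Elane, Mpo, Prtn3, Ctsg and Ms4a3, genes of granulocyte and monocyte precursors; 9 of 9 markers of its list, Kit included, were present in both libraries, but Kit was not among its 10 leading genes. The remaining cluster, led by Il1b, Pla2g7 and Csf3r, stayed unnamed. Cgas itself had 39.1 CPM (counts-per-million, the UMIs of a gene relative to all UMIs of the class) in WT and 31.7 in DKO progenitors and 3.33 and 1.23 in B cells, so its 3′ UMIs persisted in the library labelled cGAS-/-; the altered exons of both genes are not given in the sources used here, and 3′ counts outside them check no deletion.

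These helicases use ATP to pull apart short RNA duplexes or to strip proteins from RNA, and different members serve the spliceosome, mRNA export, ribosome assembly, translation and RNA decay. They share a core of conserved motifs, of which motif II, the Walker B box that binds magnesium and ATP, gives the DEAD and DEAH names. DDX41 joins the late spliceosome and is the family member whose germline variants predispose to myeloid neoplasms, and red cell precursors place heavy demands on ribosome assembly before they shut down transcription.

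The coding letters of this box show who the members are. In the longest annotated coding sequence of each gene, the DEAD spelling was found in 27 of 35 Ddx genes and the DEAH spelling in 8 of 15 Dhx genes; Ddx11 carried DEAH, and Dhx32 had no box matching the search. A cysteine codon took the third place in Ddx39 and Ddx39b, the paralogous pair of mRNA export factors, and a valine codon in Ddx21, Ddx28, Ddx50 and Ddx60. The 27 DEAD boxes were written with 12 different 12-base spellings. The stretches below are 30 bases of coding strand with the 12 bases of the box in capitals, for the members on which the results turn (GENCODE M21, GRCm38, which is mm10; positions where the stretch lies in 1 exon).
Ddx41, exon 10, chr13:55533047-55533076, minus strand: ctagccctgGATGAAGCTGACcgcatgatt
Ddx39, exon 5, chr8:83721101-83721130, plus strand: tttgtgctaGATGAATGTGACaagatgctg
Ddx39b, exon 5, chr17:35247081-35247110, plus strand: tttattttgGACGAGTGTGACaagatgctt
Ddx5, exon 7, chr11:106785184-106785213, minus strand: cttgtccttGATGAAGCTGATaggatgctt
Ddx17, exon 7, chr15:79538866-79538895, minus strand: cttgtgttgGATGAGGCTGACcggatgctt
Ddx3x, exon 11, chrX:13289399-13289428, plus strand: ctggtgttaGATGAAGCTGACcggatgtta
Ddx21, exon 6, chr10:62591872-62591901, minus strand: gttgtcctgGATGAAGTCGACcagatgttg
Ddx4, exon 17, chr13:112612088-112612117, minus strand: ttagttttgGATGAAGCTGATcgaatgttg
Dhx15, exon 4, chr5:52171487-52171516, minus strand: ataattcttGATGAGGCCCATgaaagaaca
Dhx40, exon 4, chr11:86800978-86801007, minus strand: attattttgGATGAAGCCCATgaaagaact
Ddx60, across an exon junction, plus strand: gttatatttGATGAGGTCCATtgccttggt

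The 50 genes lay on 15 chromosomes, spanned 22.4 kb at the median, and none overlapped a protein-coding gene on its own strand. The last 500 bases of 41 of them shared no 31-base word with a transcript of another gene, whereas 57.2% of the words at the end of Ddx18 also occurred elsewhere, among them in Gm16433, so Ddx18 counts are uncertain; Ddx11, Ddx50, Ddx55 and Dhx40 shared 11.3 to 13.8%.

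All 50 helicase genes were detected in both libraries, and Ddx5, a coactivator and splicing-associated helicase, gave the most UMIs (49244 in WT and 38698 in DKO). Counts here are molecules tagged at the 3′ end and are not divided by gene length, so levels are compared between cell classes and not between genes. Because hemoglobin takes 85.2% (WT) and 87.9% (DKO) of late erythroid UMIs, levels across classes are given as CPM with hemoglobin UMIs left out of the total. On that scale the summed family was highest in B cells, at 3662 CPM in WT and 3765 CPM in DKO. T or NK cells (3194 and 3221 CPM), megakaryocytes (3127 and 3334 CPM), basophil or mast cells (3167 and 2978 CPM), dendritic cells (3011 and 3235 CPM), progenitors (2975 and 2899 CPM) and early erythroid cells (2937 and 3053 CPM) lay below B cells, in an order that differed between the libraries. The intervals of T or NK cells and megakaryocytes overlap in each library. The lowest sums were those of plasma cells, at 1302 and 924 CPM, and of late erythroid cells, at 1250 and 1077 CPM; their intervals overlap in WT only. B cells were thus at the upper end in both animals, and late erythroid and plasma cells at the lower end.

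**Figure D1:**
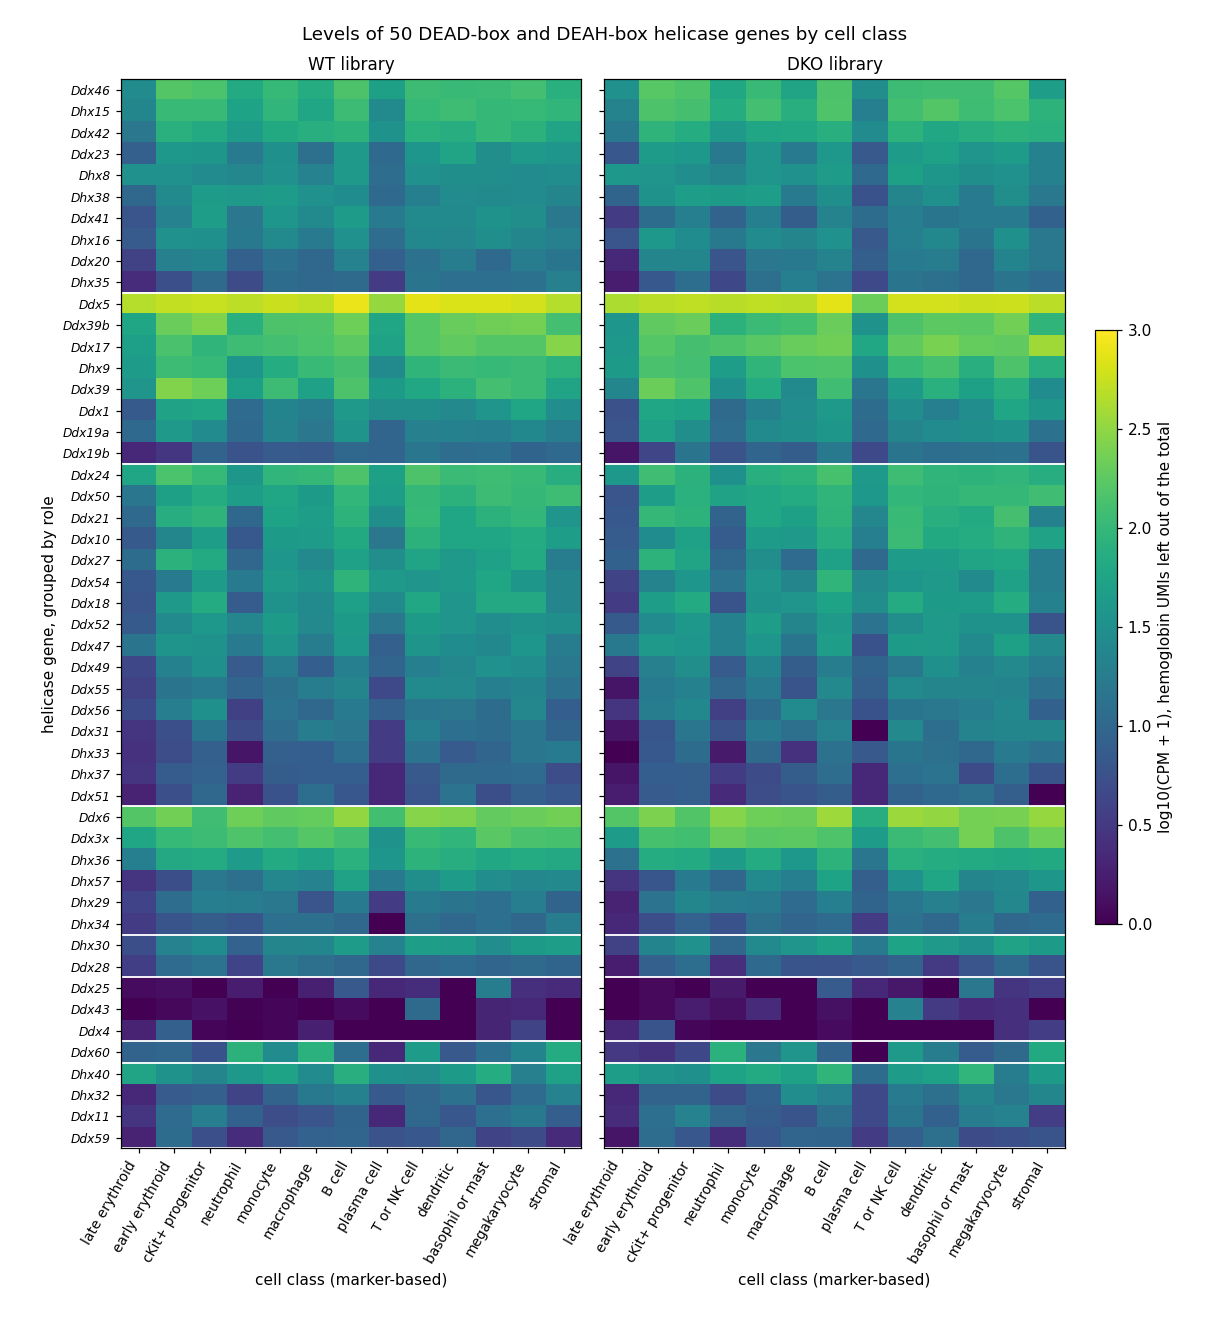
Level of the 50 helicase genes (rows, grouped by role and separated by white lines: spliceosome, mRNA export and nuclear processing, ribosome biogenesis, translation and decay, mitochondrial, germline, interferon-induced, other) in the 13 marker-based cell classes (columns) of the WT and DKO libraries, as log10(CPM + 1) with hemoglobin UMIs left out of the total. Most rows are similar from class to class, late erythroid and plasma cells are darker, and Ddx43, Ddx25 and Ddx4 are lit in 1 or 2 classes.

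Among the 50 genes, 26 had their highest class in common between the libraries, and most tops were shallow. Ddx17, a paralogue of Ddx5, was highest in stromal cells in both libraries, at 282 CPM in WT and 369 CPM in DKO against 184 and 246 CPM in dendritic cells, the next class. Ddx54, a nucleolar helicase of the large ribosomal subunit, was highest in B cells, at 88.9 and 91.7 CPM, 1.56 and 1.79 times the next class. The export factor Ddx39 was highest in early erythroid cells, at 270 and 209 CPM, ahead of progenitors at 218 and 147 CPM. Several ribosome assembly helicases were low in neutrophils and in late erythroid cells. Ddx21 stood at 101 CPM in WT T or NK cells, 9.4 CPM in WT neutrophils and 9.65 CPM in WT late erythroid cells. Ddx10 stood at 82.6, 5.66 and 6.12 CPM in the same classes.

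The 3 members best known from germ cells had their UMIs mostly in 1 or 2 classes. Ddx43 had 27 UMIs in WT and 36 in DKO T or NK cells, or 9.91 and 20.5 CPM, against 1.23 and 2.25 CPM in the next class of each library. Its T or NK level was higher in the DKO library by a log2 ratio of 1.04 (interval 0.29 to 1.83), at counts this low. Ddx4, the mouse vasa gene that marks germ cells, had 7.36 CPM in WT and 4.96 CPM in DKO early erythroid cells, 3.17 and 1.60 CPM in megakaryocytes (18 and 5 UMIs), and 0 UMIs in T or NK, plasma and dendritic cells of both libraries. Ddx25, a testis helicase, had 17.9 and 14.4 CPM in the basophil or mast class, from 17 and 11 UMIs, and 5.85 and 6.24 CPM in B cells. Empty droplets of the control held 8 UMIs of Ddx4 and 5 of Ddx43; the largest share of the Ddx4 UMIs of WT early erythroid cells that free RNA allows was 0.615%. The class pattern of each of the 3 genes was thus seen in both animals, on small counts.

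**Figure D2:**
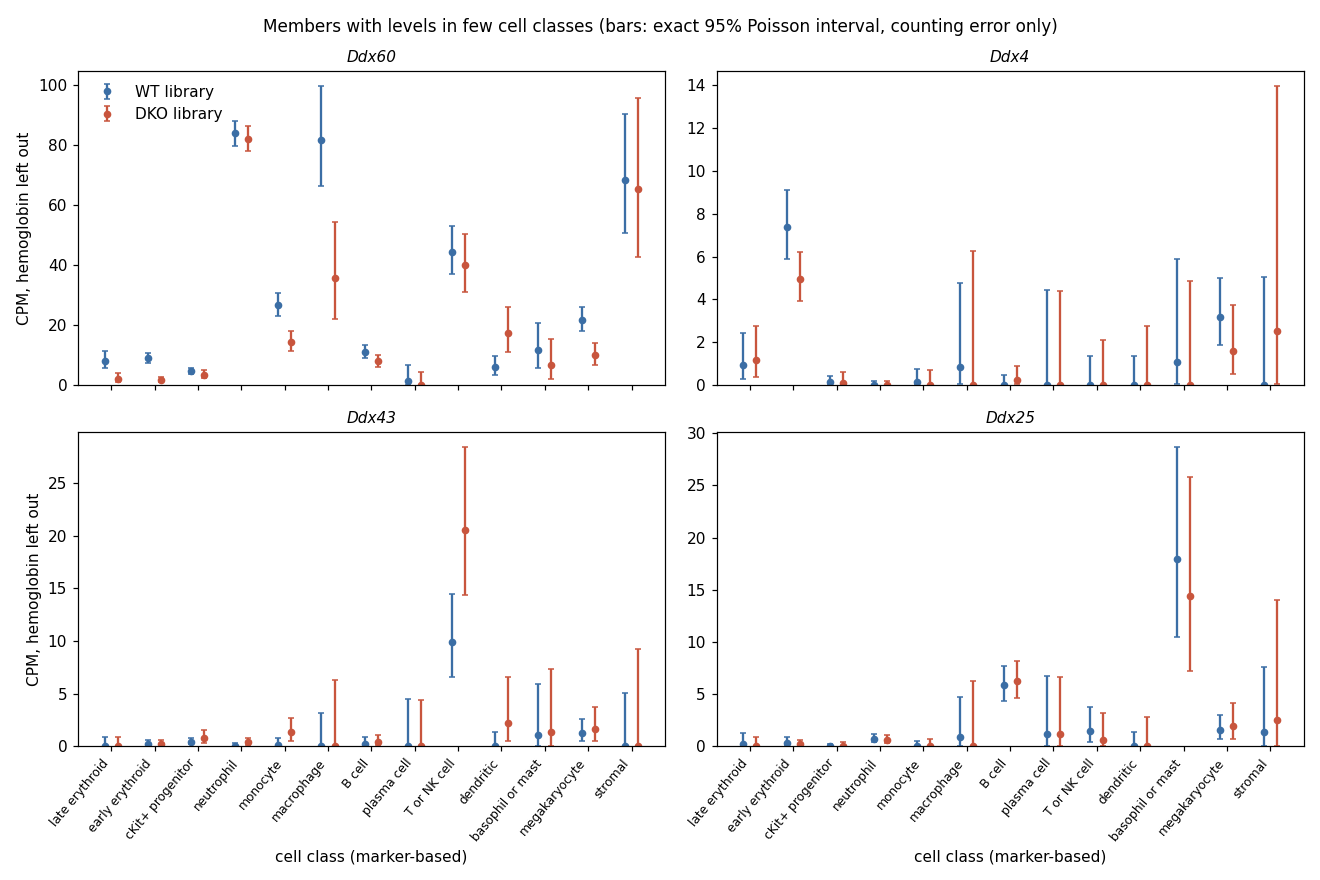
CPM of Ddx60, Ddx4, Ddx43 and Ddx25 by cell class, hemoglobin UMIs left out, WT in blue and DKO in red; points are the level in 1 library and bars the exact 95% Poisson interval. Ddx43 stands out in T or NK cells, Ddx4 in early erythroid cells and Ddx25 in the basophil or mast class in both libraries, and Ddx60 in early erythroid, macrophage, monocyte and megakaryocyte cells is lower in DKO.

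Ddx41 was lower in the DKO library in all 13 classes, although its transcripts were still present. Over all cells it had 2405 UMIs (20.3 CPM of all UMIs) in WT and 919 UMIs in DKO, a log2 ratio of -1.34 (-1.45 to -1.23). In cKit+ progenitors, where it was highest in WT, it had 807 and 174 UMIs, or 45.1 and 18.4 CPM, with a log2 ratio of -1.28 (-1.54 to -1.05). B cells gave 365 and 173 UMIs (-1.06, -1.34 to -0.80), monocytes 274 and 99 (-0.92, -1.27 to -0.59) and neutrophils 273 and 155 (-0.84, -1.14 to -0.56). Between WT progenitors and WT B cells (40.6 CPM) the intervals overlap, as do those of B cells and monocytes (34.5 CPM).

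The red cell series followed the same direction. Early erythroid cells had 238 and 165 Ddx41 UMIs, or 14.4 and 6.96 CPM (-1.05, -1.35 to -0.76), and late erythroid cells 22 and 10 UMIs. Free RNA allows for at most 50.2% of those late erythroid WT counts, against 2.11% in early erythroid cells and 0.38% in progenitors. Of the smaller classes, macrophages had 30 and 4 UMIs, megakaryocytes 169 and 53, dendritic cells 70 and 18, basophil or mast cells 32 and 12, and T or NK cells 72 and 32. The interval included 0 in T or NK cells (-1.20 to 0.07), plasma cells (14 and 9 UMIs) and stromal cells (11 and 3 UMIs).

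**Figure D3:**
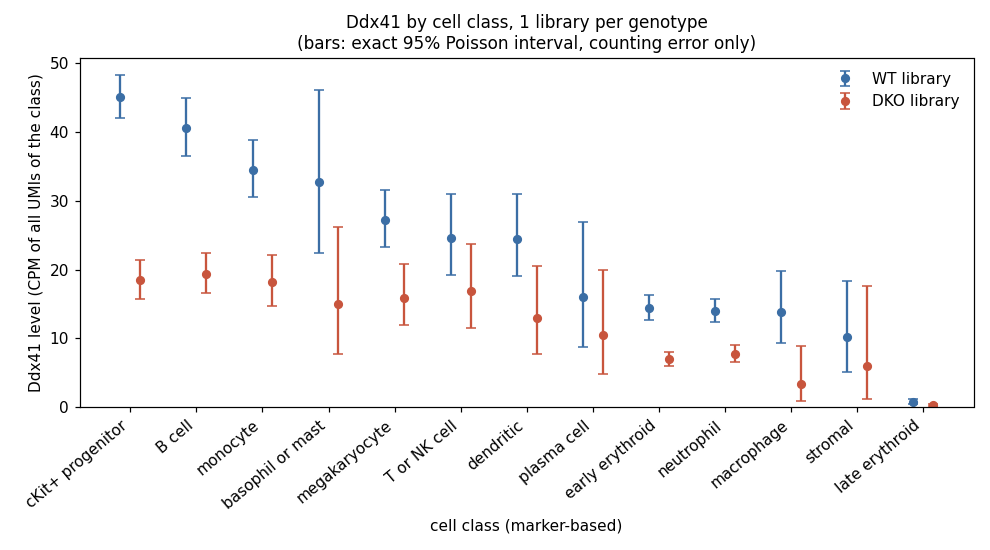
Ddx41 level (CPM of all UMIs of the class) in the 13 cell classes, ordered by the WT level; blue WT, red DKO, bars the exact 95% Poisson interval. Every DKO point lies below its WT point, with 45.1 against 18.4 CPM in cKit+ progenitors and 14.4 against 6.96 CPM in early erythroid cells.

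Ddx41 was among the genes with the lowest ratios wherever it could be ranked. Of genes with a mean of at least 10 CPM, 17 of 8185 in progenitors had a ratio as low as that of Ddx41 or lower, itself included, 36 of 8264 in B cells, 43 of 6647 in neutrophils, 62 of 6063 in early erythroid cells and 72 of 8027 in monocytes.

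Few other helicase genes differed by 1.5-fold. A member is called lower or higher where its ratio was past 1.5-fold (0.585 on the log2 scale) among genes with a mean of at least 20 CPM of all UMIs. In cKit+ progenitors 33 of 50 members passed that minimum and 1 was called lower, Ddx41, where 1.29% of all genes were. B cells likewise had 31 that passed and 1 lower, again Ddx41, against 1.24% of all genes. In monocytes 29 passed and 2 were lower, Ddx41 and Ddx39, against 3.02%, and in neutrophils 18 passed and 1 was lower, Ddx39, against 1.44%. In early erythroid cells 24 passed and 0 were lower (3.3% of all genes), and in late erythroid cells Ddx5 and Ddx6 passed and 0 were lower (27.4%). No member was called higher in any of the 6 classes, where the share of all genes was 5.18% in progenitors, 2.19% in B cells, 7.5% in monocytes, 6.41% in neutrophils, 0.719% in early and 0.298% in late erythroid cells. Over all cells 26 passed, 1 was lower (Ddx39; 8.75% of all genes) and 0 were higher (2.23%). With 0 to 2 members called lower in a class, these counts are too small to set apart from the background, and Ddx41, the deleted gene, is itself one of them in 3 classes. It fell short of 20 CPM in neutrophils and both erythroid classes. With doublets kept, or with a simple depth threshold for cells, 0 members were lower in neutrophils, 1 in monocytes and 2 in progenitors. Without hemoglobin UMIs, or with a minimum of 10 CPM, 3 members were lower in monocytes.

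Family medians lay near those of all genes. They were 0.08 against -0.03 for all genes in early erythroid cells, 0.04 against 0.12 in progenitors, 0.01 against 0.16 in neutrophils, 0.14 against 0.14 in monocytes and 0.06 against 0.11 in B cells. Summed UMIs of the family gave ratios between -0.04 and 0.08 in these 5 classes and -0.51 (185 against 130 CPM of all UMIs) in late erythroid cells, or -0.22 without hemoglobin. On the scale without hemoglobin 12 members passed in late erythroid cells and 3 were lower, Ddx24, Ddx39 and Ddx39b (28.5% of all genes), with 0 higher (4.44%). In early erythroid cells 28 passed on that scale, 0 lower (2.21%) and 0 higher (1.86%).

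Ddx39, which couples splicing to mRNA export, was the only member other than Ddx41 called lower on the scale of all UMIs. It was below WT in each of the 5 classes in which it passed. Its CPM was 191 in WT and 139 in DKO early erythroid cells (-0.47), 214 and 145 in progenitors (-0.56), 46.2 and 29.9 in neutrophils (-0.63), 107 and 66.9 in monocytes (-0.67) and 135 and 112 in B cells (-0.27), and each interval lay below 0. Its paralogue Ddx39b, with the same cysteine box, was also lower in early erythroid cells (-0.25), progenitors (-0.37) and monocytes (-0.36), but had intervals including 0 in neutrophils (0.08, -0.02 to 0.19) and B cells (-0.08, -0.18 to 0.01). Ddx5 was lower in 6 of 6 classes, by -0.10 to -0.40; the -0.40 of late erythroid cells was -0.11 without hemoglobin. Ddx24, a nucleolar helicase, was lower in 5 of 5, by -0.13 to -0.34. Of 16 members that passed in all 5 classes other than late erythroid, 3 (Ddx39, Ddx5 and Ddx24; 18.8%) were below 0 in all 5, against 26.6% of 2882 genes, and of all genes that passed in 6 classes 31.8% were below 0 in all 6.

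Of the same 16 members, 6 (37.5%) were above 0 in all 5 classes, against 35.8% of all genes, so the share is close to the background. Over the whole family, no member was called higher with the main settings. In progenitors 1 member was called higher with doublets kept or with a simple depth threshold. With a mitochondrial limit of 10%, 3 were called higher in progenitors and 1 in neutrophils. The share of all genes called in these alternative runs is not given here. Dhx15, the DEAH-box ATPase that takes spliceosomes apart, was higher in 5 of 5 classes, with log2 ratios from 0.32 in progenitors (102 to 128 CPM) to 0.47 in monocytes (87.6 to 122 CPM). Ddx17 was higher in 5 of 5, from 0.15 in early erythroid cells to 0.52 in progenitors, and Dhx9, a nuclear helicase that also resolves R-loops, in 5 of 5, from 0.19 to 0.38. Ddx3x, a translation helicase encoded on the X chromosome, was above 0 in 5 of 5 classes, from 0.10 in progenitors, where the interval included 0, to 0.45 in monocytes. Ddx6, of the mRNA decay machinery, was higher in 5 classes (0.08 to 0.38) and -0.31 in late erythroid cells, where it was -0.02 (-0.18 to 0.14) without hemoglobin. Dhx40, of poorly known function, ranged from -0.06 in early erythroid cells to 0.49 in neutrophils.

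Across all genes the direction of the differences went with gene span, the distance from the first to the last annotated base. Across all genes that passed and have a span, Spearman's correlation between span and log2 ratio was 0.46 in early erythroid cells, 0.63 in progenitors, 0.56 in neutrophils, 0.58 in monocytes and 0.57 in B cells (4450 to 6370 genes, which share libraries and are not independent replicates). In progenitors the median ratio was -0.18 in the shortest of 10 bins of equal gene number, under 4.76 kb, and 0.44 in the longest, over 124 kb. Over the members alone the correlation was 0.63 in progenitors (33 genes), 0.50 in monocytes (29), 0.33 in B cells (31), 0.28 in neutrophils (18) and 0.14 in early erythroid cells (24). Ddx41 spans 6.25 kb, Ddx5 8.83 kb and Ddx39 11.7 kb, while Dhx9, Ddx6, Dhx40 and Dhx15 span 31.9 to 40.3 kb. Ddx3x (13.1 kb) and Ddx17 (19.0 kb), both above 0 in 5 of 5 classes, are shorter than the median member. Cell Ranger of this version counts intronic reads unless told otherwise; the setting used is not given in the sources used here, and the part of span in each ratio was not tested.

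Set against genes of the same span, Ddx41 remained low and Ddx5 did not. The difference from the median of its span bin was -1.11 in progenitors, -0.91 in B cells, -0.73 in monocytes, -0.71 in neutrophils and -0.79 in early erythroid cells for Ddx41. For Ddx39 it was -0.44, -0.21, -0.58, -0.63 and -0.27 in the same order. For Ddx5 it lay between -0.01 and 0.05 in these 5 classes. Ddx3x (0.23 to 0.54) and Ddx17 (0.19 to 0.55) stayed above genes of their span in all 5, and Dhx15 did so by 0.11 to 0.26.

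**Figure D4:**
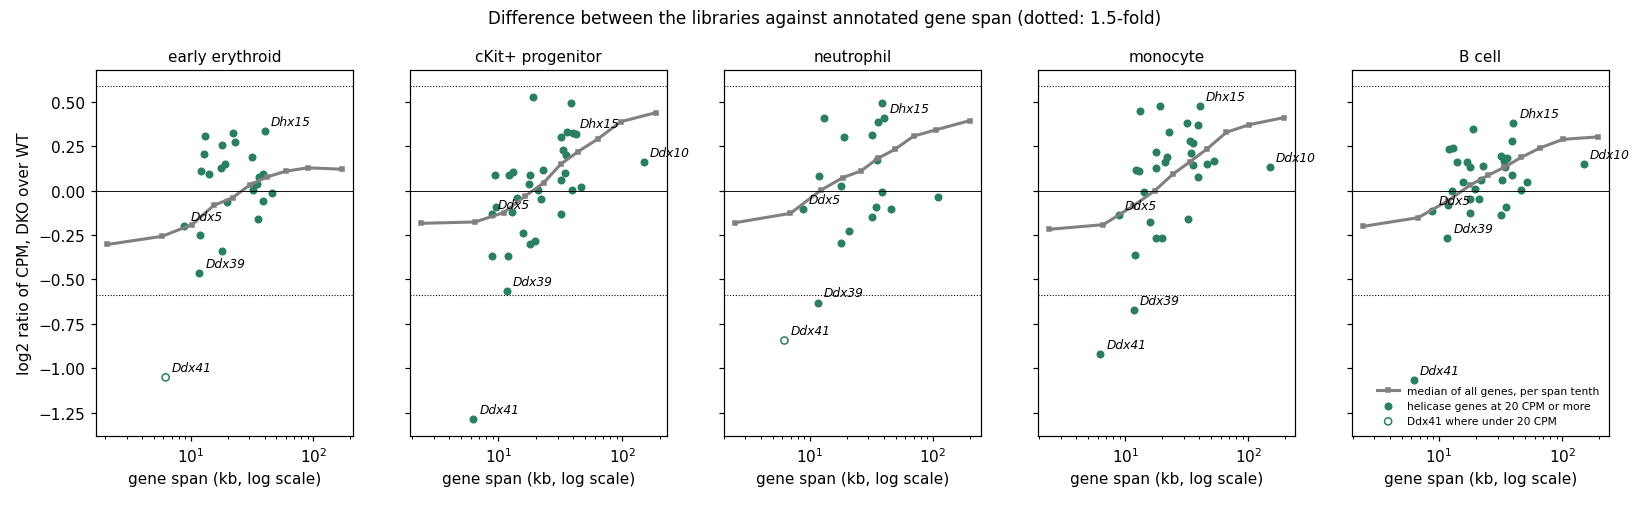
Log2 ratio of CPM, DKO over WT, against annotated gene span in kb (log scale) in 5 main classes; green points are helicase genes with a mean of at least 20 CPM, the open point is Ddx41 where it was under 20 CPM, the grey line joins the medians of all genes in 10 bins of span, and dotted lines mark 1.5-fold. The grey line is higher at its long end than at its short end in every panel, going from -0.18 to 0.44 in progenitors, and Ddx41 and Ddx39 lie below it.

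The smaller differences can be ordered by what the members do. Of the 10 spliceosome helicases, 9 passed in progenitors with a median of 0.06, 8 in monocytes with 0.14 and 7 in early erythroid cells with 0.13, and Ddx41 was the only one past 1.5-fold. Ddx46, of the early spliceosome, had intervals including 0 in 5 of 5 classes, with 139 and 141 CPM in progenitors and 134 and 134 CPM in B cells. Ddx42, also of the early spliceosome, ranged from -0.16 to 0.06 over 5 classes and Dhx38, which acts before the second splicing step, from 0.03 to 0.25. Of 16 ribosome biogenesis helicases, 11 passed in progenitors with a median of -0.05, and 6 in early erythroid cells with a median of 0.01. In progenitors 4 intervals lay below 0 (Ddx24, Ddx27, Ddx54 and Ddx56) and that of Ddx50 lay above 0. The share of all genes with such intervals is not given here, so these counts set nothing apart. Ddx21, which works on rRNA transcription and processing, was 0.33 higher in DKO early erythroid cells (52.2 and 65.4 CPM; 0.21 to 0.45) and -0.05 in progenitors (-0.17 to 0.08). Ddx27 ranged from -0.28 to 0.01 over 4 classes and Ddx50, a paralogue of Ddx21, from -0.16 to 0.20 over 5. Among translation and decay helicases, medians were 0.10 in early erythroid cells, 0.21 in progenitors, 0.38 in neutrophils, 0.22 in monocytes and 0.13 in B cells, each over 3 or 4 genes that passed. On the scale of all UMIs Dhx36, a G-quadruplex helicase, stayed between -0.01 and 0.10 and its interval included 0 in 5 of 5 classes. Without hemoglobin Dhx36 was 0.19 (0.06 to 0.33) in early erythroid cells. In late erythroid cells it was -0.58 (-1.11 to -0.07) on that scale, at under 20 CPM. Of the mitochondrial pair, Dhx30, of mitochondrial ribosome assembly, was 0.23 higher in progenitors (0.02 to 0.44), and Ddx28, a single-exon gene of 2.26 kb, had 751 and 406 UMIs over all cells, with a log2 ratio of -0.84 (-1.02 to -0.66) at under 20 CPM. Ddx11, Ddx59 and Dhx32 passed in none of the 6 classes.

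Related helicases outside the family gave a point of comparison. Of 11 helicases known for G-quadruplexes or R-loops (Blm, Wrn, Brip1 and others), 7 passed in progenitors, 7 of 7 were above 0, and their median was 0.37, against 0.04 for the DEAD-box and DEAH-box family and 0.12 for all genes. Of 12 other RNA helicases of the same superfamily, 8 passed in progenitors with a median of 0.16, and Eif4a1, the translation initiation helicase, was lower there at -0.57 (869 and 586 CPM). Whether these lists differ from the family was not tested.

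Ddx60, an antiviral helicase and the only interferon-induced member, had intervals away from 0 in some classes and including 0 in others, an untested contrast. Neutrophils, one of its highest classes, had 1571 UMIs in WT and 1564 in DKO, or 80.2 and 78.2 CPM (-0.04, -0.14 to 0.07). That class joins clusters with unlike Ddx60 counts. The cluster led by Ltf had 242 UMIs in 841 WT cells and 125 in 586 DKO cells. The one led by Mmp8 had 547 in 799 and 490 in 827 cells. Those led by Fcnb and Retnlg had 83 in 378 and 79 in 293 cells, and 699 in 745 and 870 in 923 cells. The part of this cluster mix in the class ratio was not tested. In early erythroid cells it had 104 UMIs in WT and 27 in DKO, a log2 ratio of -2.43 (-3.14 to -1.85), in late erythroid cells 34 and 9 (-2.09), in macrophages 96 and 21 (-1.24, -2.05 to -0.60), in megakaryocytes 123 and 31 (-1.06) and in monocytes 201 and 76 (-0.85, -1.26 to -0.47). The interval included 0 in progenitors, B cells, T or NK cells, basophil or mast cells, stromal cells and plasma cells (1 and 0 UMIs), and dendritic cells had more in DKO, at 16 and 23 UMIs (1.54, 0.59 to 2.59). The unnamed cluster stood at 308 and 228 CPM (-0.43, -0.60 to -0.26). The largest share of the WT early erythroid counts that free RNA allows was 6.16%, and of the late erythroid ones 41.5%. The mean of Ddx60 over both libraries was under 20 CPM of all UMIs in all main classes but neutrophils, so it entered none of the counts of members called there. In monocytes it missed that minimum by its mean only. Without hemoglobin it had 26.6 CPM in WT and 14.4 CPM in DKO monocytes (-0.88, -1.29 to -0.51).

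The helicases separated further along red cell maturation. Cells of both erythroid classes were split by the hemoglobin share of their UMIs, and levels are CPM of the remaining UMIs. The summed family was 3336 CPM in WT and 3875 CPM in DKO under 15% hemoglobin, 2618 and 2543 CPM at 15 to 40%, 2225 and 2144 CPM at 40 to 75%, 1075 and 1166 CPM at 75 to 90%, and 875 and 518 CPM at 90% and over. The sum was lowest in the last range in both libraries. The median member's log2 ratio of the last to the first range was -2.03 in WT and -3.33 in DKO, close to the -1.86 and -3.02 of all genes. S100a8, a neutrophil gene, was at 409 to 810 CPM in the first 3 ranges of WT and 332 to 487 CPM in those of DKO, and at 2719 CPM in WT and 1270 CPM in DKO in the last range; its part in the last ranges was not tested. Between the first and the last range 23 of the 24 members that passed in WT were lower (81.3% of all genes) and 0 higher (9.35%), and in DKO 25 of 25 were lower (85.8%) and 0 higher (8.29%).

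Between the first range and that of 40 to 75%, most members that passed were lower and a few had a larger share of UMIs. In WT, 26 members passed a mean of 20 CPM and 15 were lower past 1.5-fold (48.3% of all genes) and 3 higher (23.9%). In DKO, 27 passed, 21 were lower (48.2%) and 1 was higher (24.2%). The family median was -0.80 in WT and -1.15 in DKO, against -0.53 and -0.51 for all genes. Among ribosome biogenesis members 6 of 8 in WT and 9 of 9 in DKO were lower, with medians of -1.93 and -1.92. Of mRNA export and nuclear processing members 5 of 7 were lower in each library, with medians of -0.95 and -1.28. Of spliceosome members 3 of 7 in WT and 5 of 7 in DKO were lower.

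Ddx21 went from 128 CPM to 18.8 and then 6.33 CPM over the first 3 ranges in WT, and from 201 to 18.8 and 6.38 CPM in DKO. The ratio of the third to the first range was -4.27 (-5.03 to -3.71) in WT and -4.94 (-5.51 to -4.50) in DKO. Ddx10 (-3.93 and -5.00), Ddx18 (-3.76 and -4.40) and Ddx1 (-2.80 and -3.32), a helicase of tRNA ligation, followed the same course. Dhx40 instead went from 23.3 to 36.4 and 71.1 CPM in WT and from 24.3 to 35.5 and 55.6 CPM in DKO, ratios of 1.61 (1.30 to 1.92) and 1.19 (0.92 to 1.47). The spliceosome helicase Dhx8 had ratios of 1.21 in WT and 0.56 in DKO, Ddx6 of 0.64 and 0.19, and Ddx5 of 0.51 and 0.28. For each of these 4 genes the intervals of both libraries lay above 0, so each made up a larger share of the UMIs other than hemoglobin at 40 to 75% than under 15%.

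**Figure D5:**
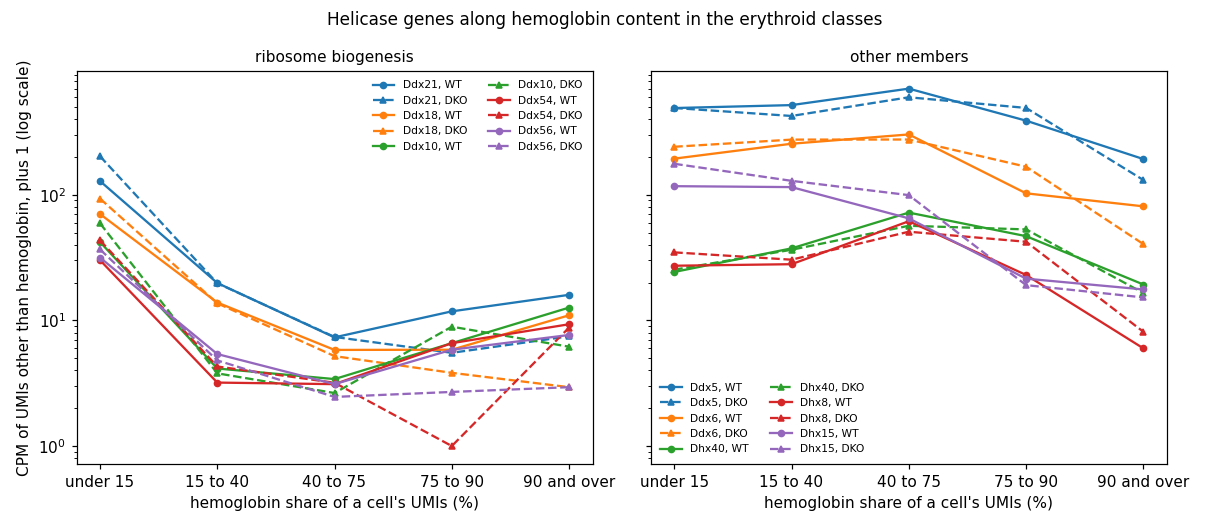
CPM of UMIs other than hemoglobin plus 1 (log scale) in erythroid cells grouped by hemoglobin share, for 5 ribosome biogenesis helicases (left) and 5 other members (right); solid lines WT, dashed lines DKO, 1 library each. Ddx21 drops from 128 to 6.33 CPM in WT by the third range, whereas Dhx40 climbs from 23.3 to 71.1 CPM.

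Ddx41 belonged to the members that dropped early. It had 32.6, 7.22 and 5.72 CPM over the first 3 ranges in WT and 18.9, 3.30 and 3.10 CPM in DKO, from 200, 23 and 19 and from 136, 13 and 17 UMIs. Its ratio of the third to the first range was -2.44 (-3.27 to -1.83) in WT and -2.54 (-3.43 to -1.88) in DKO. Ddx41 transcripts were thus most frequent in the erythroid cells with the least hemoglobin in both animals, and lower in DKO within each of these ranges. Ddx4 had 7.17, 10.05 and 3.92 CPM over the first 3 ranges in WT, from 44, 32 and 13 UMIs. In DKO it had 6.12, 4.82 and 3.65 CPM, from 44, 19 and 20 UMIs. Its interval for the third over the first range included 0 in WT (-1.89 to 0.05) and in DKO (-1.59 to 0.05). Beyond 75% hemoglobin Ddx4 had at most 1 UMI.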

How the data were processed

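Per the file headers and the submitters' processing notes, the authors aligned reads to mm10 and made the deposited UMI counts with Cell Ranger 7.1.0; both matrices hold raw integer counts per gene and barcode. The WT matrix holds all barcodes and the DKO matrix called cells. Cells of WT were called here by an order-of-magnitude threshold (4869 UMIs) plus a Monte Carlo test against droplets of up to 100 UMIs (at least 500 UMIs, FDR 0.01); cells over 20% mitochondrial UMIs (171 in WT, 215 in DKO) and Scrublet doublets (403 and 198; 2.12% and 1.42%) were removed. Cells were clustered with scanpy 1.11.5 (2000 variable genes, 30 components, 15 neighbors, Leiden resolution 1.0), leaving out the members and Cgas. UMIs were summed per class and library; ratios had 1 count added. Largest free RNA shares were set by the most depleted marker of another class. The calculation was tested on simulated counts of each main class, where 99.5 to 100% of 2-fold changes came out past 1.5-fold. Gene positions came from GENCODE M21 and promoters from RefSeq (GRCm38.p6).

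Named were Ddx41, the up to 4 members of each role list with the highest CPM, members past 1.5-fold and those with the steepest top class; Ddx1, Ddx10, Ddx18, Dhx8 and Dhx9 were named after their values were seen. Members, lists and tests were chosen with earlier results of these data known. Each library is 1 mouse. Alternatives were the scale without hemoglobin, cell calling, doublets, mitochondrial limit, clustering, minimum level, added count and, chosen after seeing the data, gene span.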

Additional observations from a re-analysis of the deposited data

Results flagged for a closer look

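Empty droplets of the control library also held helicase UMIs. These droplets enter no ratio of DKO over WT, but they set the largest free RNA shares and were the reference for calling WT cells. The summed family stood at 2386 CPM in barcodes of up to 100 UMIs, from 9720 UMIs. This was flagged because it is signal outside the main measurement. The level in called WT cells was 1908 CPM of all UMIs. The largest share of family UMIs that free RNA allows was 26.6% in WT late erythroid cells, 4.61% in macrophages and 0.748 to 2.81% in the other 5 main classes. The DKO matrix holds called cells, so its empty droplets were not analysed here.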

How the results depend on the processing

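Of 192 alternative values, 156 stayed within their counting interval or 1.5 times the main count, 33 moved and 3 changed sign; Ddx41 stayed lower in DKO in every alternative run. Without hemoglobin UMIs, the Ddx41 log2 ratio over all cells was -1.17 and 3 members were lower in late erythroid cells; the summed family ratio changed sign over all cells (0.00563) and in early erythroid cells (0.0561), and was -0.22 in late erythroid cells and 0.0221 in monocytes. With the order-of-magnitude threshold alone, the family ratio was -0.27 over all cells, -0.43 in late erythroid cells and -0.00757 in monocytes, a change of sign; 2 members were lower and 1 higher in progenitors, 0 lower in neutrophils and 1 lower in monocytes. With doublets kept, those 4 counts were again 2, 1, 0 and 1, and the family ratio was -0.34 in late erythroid cells, -0.00638 in early erythroid cells and 0.0113 in monocytes. With a mitochondrial limit of 10%, 2 members were lower and 3 higher in progenitors and 1 higher in neutrophils. A minimum of 10 CPM gave 2 lower over all cells, 1 lower in early erythroid cells, 2 lower in neutrophils, and 1 higher each in progenitors, monocytes and B cells; a minimum of 50 CPM gave 0 lower in progenitors, neutrophils and B cells and 1 in monocytes. Relative to genes of like span, an alternative chosen after seeing the data, the Ddx41 ratio over all cells was -0.96, with 0 members lower over all cells and 1 in monocytes. The cause of these moves was not tested. A coarser clustering (resolution 0.5) and 0.5 added counts moved none of the values recomputed under them. The coarser clustering gave 11 classes instead of 13, and no cKit+ progenitor value was recomputed under it, so it does not check that class. No paired analysis was possible because each genotype has 1 library, and no replicate could be left out. Counting intervals cover neither animal nor preparation, and members under 20 CPM were not counted as called.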

Other observations

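Guanine runs able to form a G-quadruplex were looked for in member promoters, since the study concerns DDX41 and these structures. The motif searched was 4 runs of GGG with loops of 1 to 7 bases, on both strands, in the 250 bases before each RefSeq start (GRCm38.p6). It was found for 3 of the 45 members with an entry (6.67%), Ddx5, Ddx31 and Dhx32, and for 5001 of 27025 genes (18.5%). The match nearest to a start of Ddx5 ended 32 bases before it, with runs in capitals:
Ddx5, chr11:106789218-106789244, minus strand: GGGgaaggaGGGgtggaagaGGGaGGG
A match is a description of the letters only. Over all cells the log2 ratio was -0.30 for Ddx5 (-0.32 to -0.28). The intervals of Ddx31 (-0.04, -0.19 to 0.11) and Dhx32 (-0.01, -0.18 to 0.15) included 0. In B cells Ddx31 was higher in DKO (0.51, 0.17 to 0.86), at under 20 CPM.

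Over all cells the family was lower in DKO as CPM of all UMIs (-0.16, -0.17 to -0.15), and without hemoglobin the interval included 0 (0.00563, -0.0031 to 0.014), while hemoglobin took 28.5% of WT and 36.3% of DKO UMIs.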
